A study of Mus musculus with 2 samples.

Results

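The myelin genes examined here were Mbp, Mog, Mobp, Mag, Cnp, Mal, Cldn11, Opalin and Myrf, 9 of the 32285 genes counted. They were chosen by name, as genes of the myelin sheath and of its transcriptional control. The measurements came from 10x single-nucleus 3' RNA sequencing of the mouse hippocampus. There was 1 library from CAPZA2+/- tissue, heterozygous for a knockout of the gene for an actin capping protein subunit, and 1 from wild-type tissue. The labels number each library replicate 1, give no age, sex, strain, number of animals or deleted part of Capza2, and describe 1 housing and nuclei protocol for both. Per its design text, the study set out to compare the proportions of cell populations. With 1 library for each genotype no test between genotypes was possible, and a difference between the libraries cannot be told apart from one between animals, dissections or preparations. Values are unique molecular identifiers (UMIs, 1 for each captured RNA molecule), either per nucleus or scaled to a total of 1000000 UMIs of the summed nuclei of a class (CPM). Intervals are exact 95% intervals that cover counting error only.

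Myelin is the stack of membrane that oligodendrocytes wrap around axons to insulate them. Oligodendrocyte precursors divide, pass through a short committed stage and mature into cells that make large amounts of myelin protein and lipid. MBP holds the inner faces of the membrane together, and MOBP is a small basic protein of the same compact layers. MAL is a raft-associated protein of membrane sorting, and CLDN11 is a claudin that forms the tight junctions between myelin layers. MOG and MAG are immunoglobulin-family proteins of the outermost and the axon-facing membrane, and OPALIN is a membrane glycoprotein of the paranodal and inner loops. CNP is a cyclic nucleotide phosphodiesterase that keeps cytoplasmic channels open within myelin. MYRF is a membrane-bound transcription factor that cuts itself free and is required for myelin gene expression.

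RefSeq promoter windows (GRCm38.p6, 250 bases before to 50 bases after a start site) were at hand for 7 of the 9 genes. The heptamer CTGGCAC, the core of the sequence known to be bound by MYRF, was found on either strand in windows of Mag, Cnp and Opalin, and in 5.01% of all 32851 windows. Its variant CTGGTAC was found for Mog and in 2.24% of all windows. ACAAAG, the core bound by SOX proteins, was found for Mobp, Mag, Cnp and Opalin and in 18.7% of all windows. The windows of Cnp, Mag and Opalin are printed because the 3 share both motifs while their genes stood at different parts of their mature level in committed nuclei, as given further on. Capitals mark CTGGCAC and ACAAAG or their reverse complements, which do not overlap each other.
Cnp (chr11:100574689-100574988, plus strand): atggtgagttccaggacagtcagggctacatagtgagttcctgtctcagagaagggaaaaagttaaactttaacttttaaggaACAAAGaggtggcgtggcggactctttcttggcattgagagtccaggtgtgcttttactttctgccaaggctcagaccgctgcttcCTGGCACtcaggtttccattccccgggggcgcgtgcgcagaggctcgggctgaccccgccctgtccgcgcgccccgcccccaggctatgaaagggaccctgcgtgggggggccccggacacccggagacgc
Mag (chr7:30914814-30915113, minus strand): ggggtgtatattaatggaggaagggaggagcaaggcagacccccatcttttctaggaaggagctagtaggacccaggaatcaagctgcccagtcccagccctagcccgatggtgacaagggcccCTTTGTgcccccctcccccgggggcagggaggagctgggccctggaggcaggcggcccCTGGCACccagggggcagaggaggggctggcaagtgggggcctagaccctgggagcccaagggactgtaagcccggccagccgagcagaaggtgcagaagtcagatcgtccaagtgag
Opalin (chr19:41077064-41077363, minus strand): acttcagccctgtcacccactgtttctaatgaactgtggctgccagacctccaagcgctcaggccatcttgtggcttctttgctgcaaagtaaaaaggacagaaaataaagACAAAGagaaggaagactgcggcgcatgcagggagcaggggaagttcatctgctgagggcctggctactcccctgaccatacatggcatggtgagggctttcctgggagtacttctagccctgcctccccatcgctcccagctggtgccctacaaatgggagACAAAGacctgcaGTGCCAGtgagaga
CTGGCAC begins 81 bases before the start site in Cnp and 68 bases before it in Mag, and in Opalin it lies 36 bases after it on the other strand. These matches are letters in a window and no measure of binding.

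In GENCODE on GRCm38, Mog lies at chr17:37010743-37023398 on the minus strand, Mobp at chr9:120149707-120181484 on the plus strand and Mag at chr7:30899176-30914873 on the minus strand. Cnp lies at chr11:100574904-100591729 (plus), Mal at chr2:127633226-127656695 (minus), Cldn11 at chr3:31149920-31164324 (plus), Opalin at chr19:41061710-41077113 (minus) and Myrf at chr19:10208272-10240748 (minus). Mbp, on chromosome 18, is the longest of them at 110492 bases and has 10 annotated coding start sites, against 1 to 5 in each of the other 8 genes. Between 73.6% and 92.3% of each gene lies outside all of its annotated exons, and no source used here states whether intron reads were counted. The last 8912 bases of Cnp are shared with the protein-coding gene Dnajc7 on the opposite strand. Mobp overlaps the non-coding Gm38642 on its own strand by 2447 bases, and Mag, Mal, Cldn11, Opalin and Myrf overlap no annotated gene.

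After filtering and removal of likely doublets 6761 CAPZA2+/- nuclei and 6090 wild-type nuclei were kept, of which 1128 and 800 were mature oligodendrocyte-like, 21 and 12 committed precursor-like and 175 and 158 precursor-like. Clusters were named from marker lists that hold none of the 9 genes, and the 9 genes were also left out of the clustering. Total UMIs were 62702888 in the CAPZA2+/- library and 58701532 in the wild-type library, and 13 barcodes occurred in both. Mature nuclei were shallow, with a median of 1748.5 UMIs in CAPZA2+/- and 1845.5 in wild type, against 8625 and 8550 in neurons. Capza2 stood at 67.7 CPM in CAPZA2+/- nuclei and at 86.1 CPM in wild-type nuclei, which is lower in the library labelled heterozygous. Barcodes under the filters made up 7.56% of the CAPZA2+/- library and 1.35% of the wild-type library. Mitochondrially encoded genes were lower in CAPZA2+/- mature nuclei for 7 of the 8 with enough UMIs, at a median log2 ratio of -0.34, and the part of this in the results was not tested.

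Together the 9 genes gave 7929 CPM (95% interval 7811 to 8048) in CAPZA2+/- and 7533 CPM (7398 to 7669) in wild-type mature oligodendrocyte-like nuclei. In neurons the same sum was 112.0 CPM in CAPZA2+/- and 93.98 CPM in wild type. A mature nucleus held a median of 13 UMIs of the 9 genes in CAPZA2+/- and 12 in wild type, from a median of 6 different genes in each. All 9 were seen at once in 43 of 1128 CAPZA2+/- and 23 of 800 wild-type mature nuclei, and none of them in 4 and 2 nuclei.

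Mbp was detected in 95.2% of CAPZA2+/- and 94.4% of wild-type mature nuclei, at 4.56 and 4.79 UMIs per nucleus. In microglia-like nuclei, which do not make myelin and had similar depth (medians of 1460.5 and 1465 UMIs), the shares with an Mbp UMI were 13.2% and 8.02%. Mog was seen in 82.5% of CAPZA2+/- and 81.4% of wild-type mature nuclei, against 1.23% and 0.844% of microglia-like nuclei. MOG is a late surface protein of the sheath, and its gene was rarer than Mbp in microglia-like nuclei. Mag was detected in 80.9% and 76.4% of mature nuclei and Mobp in 73.8% and 76.6%, against 7.36% and 6.75% of microglia-like nuclei for Mag and 4.29% and 4.64% for Mobp. Opalin was found in 64.2% of CAPZA2+/- and 63.2% of wild-type mature nuclei (2.45% and 3.38% of microglia-like nuclei), and Mal in 70.1% and 59.4% (11.7% and 8.02%). Cldn11 and Cnp were found in fewer mature nuclei, 49.7% and 49.0% for Cldn11 and 47.0% and 39.6% for Cnp. Myrf, which encodes the transcription factor, was the sparsest, with a UMI in 20.2% of CAPZA2+/- and 22.2% of wild-type mature nuclei, against 0.920% and 0.422% of microglia-like nuclei.

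In committed nuclei Mog, Mal and Opalin stood at 8.65% or less of their mature level in both libraries, and Mbp at 57.8% or more of it. In wild type 1 nucleus held 37 of the 74 Mbp UMIs of the class. In the alternatives run the Mbp level was 66.2% to 79.6% in CAPZA2+/- and 34.2% to 57.8% in wild type. In precursor-like nuclei the 9 genes summed to 412.5 CPM in CAPZA2+/- and 294.8 CPM in wild type. The order of the other 5 members differed between the libraries. Myrf stood at 126.9% of its mature level in CAPZA2+/- and 27.8% in wild-type committed nuclei, Cnp at 34.3% and 142.5% and Cldn11 at 24.4% and 63.7%. Mag stood at 27.8% in CAPZA2+/- and 57.6% in wild type, and Mobp at 5.14% and 43.2%. Mbp reached 1868 CPM (1581 to 2192) in CAPZA2+/- and 1397 CPM (1097 to 1753) in wild-type committed nuclei, which is 79.5% and 57.8% of its level in mature nuclei. Opalin had no UMI in any of the 33 committed nuclei, whereas 1230 of 1928 mature nuclei held at least 1. With 3 UMIs set as the floor over the whole class, Opalin stood 28.9-fold lower in committed than in mature nuclei of both libraries together. That floor is 3.46% of the mature level, and the exact interval reached 4.26%. Within single libraries the floor was 5.52% of the mature level in CAPZA2+/- and 9.23% in wild type. The committed nuclei were the deeper ones, with median depths of 3958 and 3440 UMIs.

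**Figure D1:**
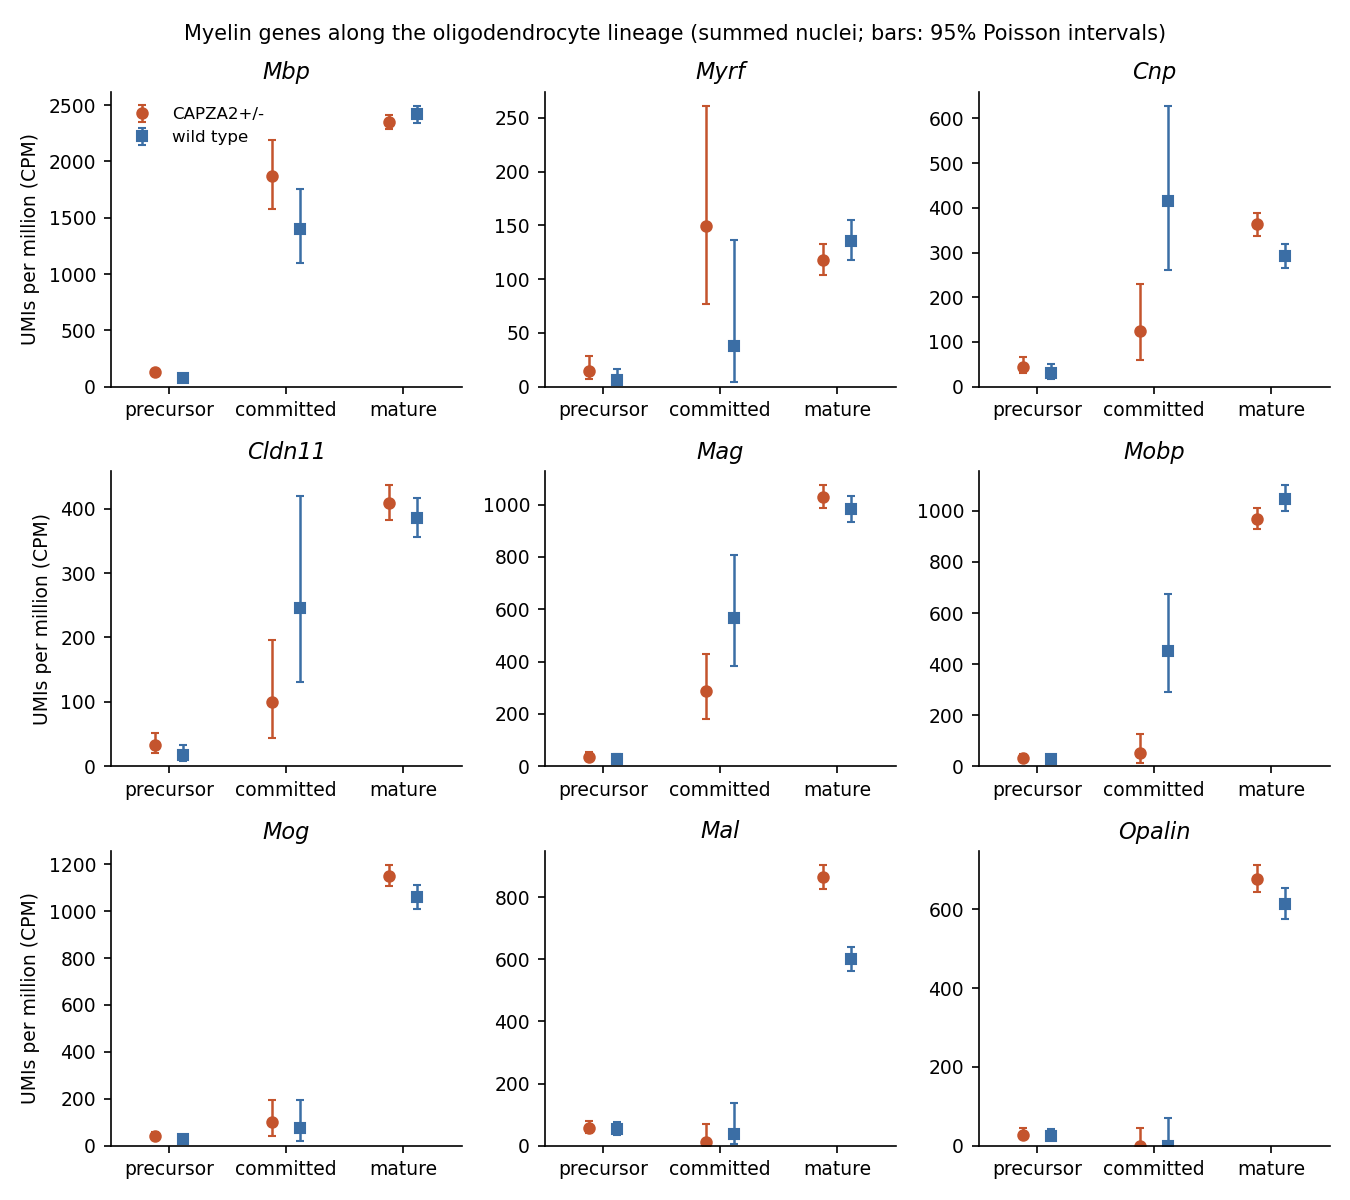
Level of each myelin gene in precursor-like, committed precursor-like and mature oligodendrocyte-like nuclei, as CPM of the summed nuclei (y axis, from 0), for CAPZA2+/- (circles) and wild type (squares) with 95% Poisson intervals. Mbp stood at 1868 and 1397 CPM in committed nuclei, whereas Opalin had no UMI there in either library.

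Among the other membrane proteins, Mal had 1 UMI in the 21 CAPZA2+/- and 2 UMIs in the 12 wild-type committed nuclei, against 863.4 and 599.9 CPM in mature nuclei. Over both libraries committed nuclei held 2.99% (0.62 to 8.75) of the mature CPM of Mal and 8.09% (4.18 to 14.2) of that of Mog. At the mean level of neurons 33 nuclei would carry 3.98 Mal UMIs, whereas on the CPM scale Mal stood at 22.5 in committed nuclei and 11.2 in neurons of both libraries. Whether these 3 Mal UMIs are background was not tested. Mag stood at 39.4% (29.4 to 51.6) of its mature CPM over both libraries, Cldn11 at 39.5% (24.4 to 60.6) and Mobp at 20.96% (13.9 to 30.4). Cnp stood at 72.1% (49.1 to 102) and Myrf at 83.9% (45.5 to 142), so neither interval leaves out the mature level. Between the libraries the levels in between were unequal. Mag stood at 286.4 CPM (181.6 to 429.8) in CAPZA2+/- and 566.2 CPM (382.0 to 808.3) in wild-type committed nuclei, and Cnp at 124.5 CPM (59.7 to 229.0) and 415.2 CPM (260.2 to 628.6). Mobp stood at 49.8 CPM (13.6 to 127.5) in CAPZA2+/- and 452.9 CPM (290.2 to 673.9) in wild type. No call was made between the genotypes in this class, where the wild-type values rest largely on the nucleus described next.

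The contrast between Mbp and the late genes Opalin and Mal was also seen at equal depth. After thinning each nucleus to 1000 UMIs, Mbp was seen in 66.7% of CAPZA2+/- and 41.7% of wild-type committed nuclei, against 87.1% and 89.4% of mature nuclei. Opalin was then seen in 0 committed nuclei of either library, against 47.1% of CAPZA2+/- and 44.0% of wild-type mature nuclei, and Mal in 4.76% and 8.33% of committed nuclei, against 52.0% and 40.2% of mature nuclei.

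The committed nuclei differed widely among themselves. In CAPZA2+/- the 21 nuclei held from 0 to 45 UMIs of the 9 genes with a median of 5, and in wild type the 12 nuclei held from 0 to 115 with a median of 3. A single wild-type nucleus of 8296 UMIs held 115 of the 171 member UMIs of its class. It had 37 Mbp, 26 Mag, 24 Mobp, 15 Cnp, 9 Cldn11, 3 Mog and 1 Myrf UMIs but none of Mal or Opalin, nor any of the committed-stage markers Bmp4 and Gpr17. It alone held every wild-type committed UMI of Mobp. The lack of both markers was not particular to it, since the CAPZA2+/- nuclei with 33 and 29 member UMIs also held neither. Without the nucleus richest in member UMIs in each library, the summed committed level was 28.2% of the mature level in CAPZA2+/- and 16.6% in wild type, against 33.9% and 42.8% with them.

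Mbp was the member seen in the most committed nuclei. It was found in 26 of the 33 committed nuclei, Cnp in 12, Myrf in 11, Cldn11 in 9, Mag in 8, Mog in 6, Mobp in 4 and Mal in 3. The second-richest CAPZA2+/- nucleus had 20 Mbp, 5 Mag, 4 Mog, 2 Cnp and 2 Cldn11 UMIs. With the 2 richest nuclei left out, 31 nuclei held 54.1% of the mature CPM of Mbp, 85.6% of that of Myrf, 39.7% of that of Cnp, 24.8% of that of Cldn11 and 13.1% of that of Mag. The values were then 6.67% for Mog, 3.29% for Mal and 1.65% for Mobp, and Opalin remained at 0. Mobp thus moved below Mog and Mal. Myrf differed between libraries here, with 12 UMIs in 9 of 21 CAPZA2+/- nuclei and 2 UMIs in 2 of 12 wild-type nuclei. Of the 10 leading genes of this class against nuclei outside the lineage, Bcas1, Gpr17, Enpp6 and Bmp4 were on its marker list. Pdgfra, which marks precursors, had 0 UMIs in its CAPZA2+/- and 1 UMI in its wild-type nuclei. Its mean Scrublet doublet score was 0.0927 in CAPZA2+/- and 0.0411 in wild type, against 0.0322 and 0.0190 in mature nuclei, and the part of doublets in it was not tested.

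**Figure D2:**
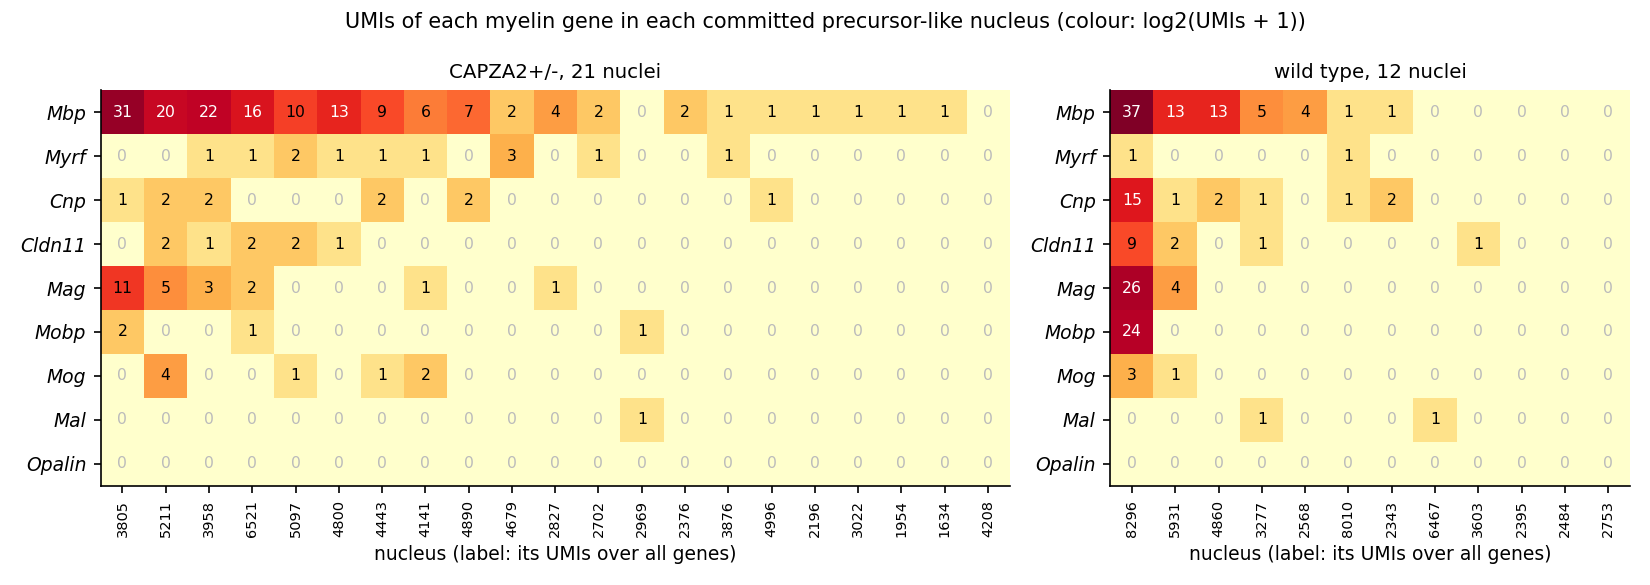
UMIs of each myelin gene (rows) in each of the 21 CAPZA2+/- (left) and 12 wild-type (right) committed precursor-like nuclei, ordered within a library by their member UMIs, with the nucleus's total UMIs under each column and colour on a log2(UMIs + 1) scale. Mbp fills most columns, the Opalin row is 0 throughout, and the first wild-type column holds 115 UMIs.

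Other genes of the lineage framed this order. Among genes of myelin lipid synthesis, Ugt8a, the enzyme that makes galactosylceramide and a naming marker of mature nuclei, stood at 212.9 CPM in CAPZA2+/- and 174.2 CPM in wild-type precursors, at 386.0 and 471.8 CPM in committed nuclei and at 962.0 and 961.4 CPM in mature nuclei. St18, a zinc finger factor and another naming marker, stood at 2603 CPM in CAPZA2+/- and 2737 CPM in wild-type committed nuclei, against 4340 and 4536 CPM in mature nuclei. Aspa, the enzyme that splits N-acetylaspartate and also a naming marker, had 1 UMI in CAPZA2+/- and 0 UMIs in wild-type committed nuclei, against 1150 and 1154 CPM in mature nuclei. Qk, an RNA-binding protein of myelin transcripts, was higher in committed nuclei (5915 CPM in CAPZA2+/- and 5398 CPM in wild type) than in mature nuclei (3902 and 4053 CPM). Bcas1, which marks newly formed oligodendrocytes and was used to name the committed class, stood at 3188 and 3454 CPM there, against 493.8 and 533.1 CPM in mature nuclei.

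Precursor-like nuclei held few UMIs of the 9 genes, and a few nuclei held a large share of them. The summed level was 5.20% (4.57 to 5.90) of the mature CPM in CAPZA2+/- and 3.91% (3.32 to 4.59) in wild type. Per nucleus it was 1.42 UMIs in CAPZA2+/- and 0.975 UMIs in wild type, against 1.22 and 1.01 UMIs in neurons. In CAPZA2+/- 3 of 175 precursor-like nuclei held 53.2% of the member UMIs, and in wild type 1 of 158 nuclei held 31.8%. Without nuclei of 10 or more member UMIs the level was 0.674 UMIs per nucleus in CAPZA2+/- and 0.669 in wild type. Left out the same way, astrocyte-like nuclei stood at 0.678 and 0.500, microglia-like nuclei at 0.617 and 0.489 and neurons at 1.02 and 0.886. Without the rich nuclei the precursor level was thus between those of microglia-like nuclei and neurons in both libraries.

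Between the libraries the precursor sum was 0.48 higher on the log2 scale in CAPZA2+/- (0.19 to 0.78), and without those 4 nuclei the log2 ratio was -0.02. No member reached the 200 UMIs over both libraries that a call needed in precursors, where 1.58% of 884 genes passed 1.5-fold. Mbp had 76 UMIs in 175 CAPZA2+/- and 42 UMIs in 158 wild-type precursors, a log2 ratio of 0.65 that turned to -0.32 without the 4 nuclei. Those nuclei were chosen by their member UMIs, the value compared, so a lower ratio without them follows in part from the choice. The 3 mitochondrially encoded genes with enough UMIs in precursors were all lower in CAPZA2+/- past 1.5-fold, at a median log2 ratio of -0.87.

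In mature nuclei none of the 9 genes differed by 1.5-fold between the genotypes, where 0.858% of the 3728 genes with at least 200 UMIs did. Of the 9 log2 ratios 6 were above 0, at a median of 0.09, beside 51.7% of all genes and a median of 0.01. The sum differed by 0.07 on the log2 scale (0.04 to 0.11). Mal had the highest ratio, at 863.4 CPM (824.9 to 903.2) in CAPZA2+/- and 599.9 CPM (562.4 to 639.3) in wild type, a log2 ratio of 0.53 (0.41 to 0.64). That placed Mal at the 99.0th percentile of the 3728 genes, whose central 95% ran from -0.39 to 0.45. Its ratio was above 0 in each of the 6 mature subclusters, from 0.35 to 0.84, and it was 0.43 to 0.56 in the alternatives run. Per nucleus Mal stood at 1.68 UMIs in CAPZA2+/- and 1.19 in wild-type mature nuclei, beside 0.129 and 0.0844 in microglia-like nuclei of similar depth.

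Cnp came next, at 362.8 CPM in CAPZA2+/- and 291.5 CPM in wild type, a log2 ratio of 0.32 (0.15 to 0.48), above 0 in 5 of 6 subclusters. Mog (log2 0.12, 0.03 to 0.21) and Opalin (0.14, 0.02 to 0.26) were slightly higher in CAPZA2+/-, and Mobp (-0.11, -0.21 to -0.02) slightly lower. For Mbp the log2 ratio was -0.04 (-0.10 to 0.02), for Mag 0.07 (-0.02 to 0.16), for Cldn11 0.09 (-0.06 to 0.24) and for Myrf -0.20 (-0.47 to 0.06), and these 4 intervals hold 0. All of these intervals leave out variation between animals, which 1 library for each genotype cannot show.

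**Figure D3:**
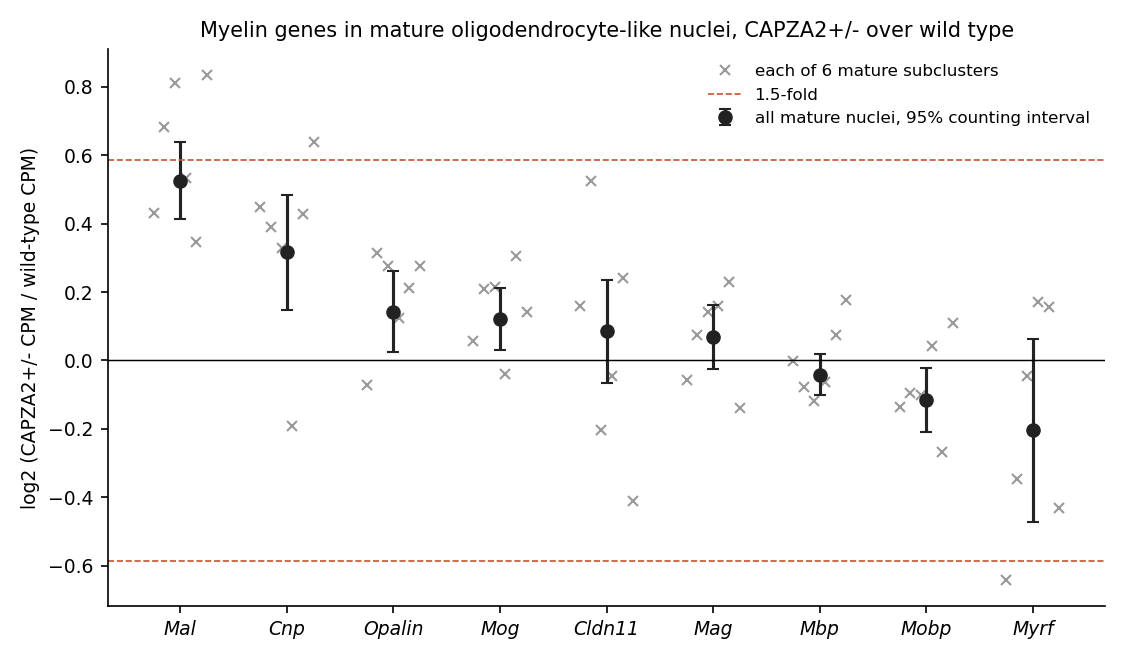
Ratio of CAPZA2+/- to wild-type CPM of each myelin gene in mature oligodendrocyte-like nuclei (y axis, log2), with the 95% counting interval (black) and the ratio within each of the 6 mature subclusters (grey crosses), against 1.5-fold in either direction (dashed). Mal stands highest at 0.53 with every subcluster above 0, and no gene passes the dashed lines in all mature nuclei.

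No gene of the other lineage lists passed 1.5-fold in the same comparison, in which 51.7% of the 3728 genes were higher in CAPZA2+/-. Of 19 listed further myelin and mature oligodendrocyte genes, 16 had 200 UMIs, of which 14 were higher and 2 lower in CAPZA2+/-, at a median log2 ratio of 0.15 and with none past 1.5-fold. Ptgds, a prostaglandin synthase abundant in these cells, stood at 2803 CPM in CAPZA2+/- and 2543 CPM in wild type (log2 0.14). Trf, the iron carrier transferrin, differed by 0.05 on the log2 scale, and Aspa stood at 1150 and 1154 CPM. Of 10 lipid synthesis genes with 200 UMIs 7 were higher and 3 lower (median 0.11), led by Scd2, a stearoyl-CoA desaturase, at 1376 CPM in CAPZA2+/- and 999.9 CPM in wild type (log2 0.46, 0.37 to 0.55). Ugt8a stood at 0.00, Fa2h, which hydroxylates the fatty acids of myelin lipids, at -0.11 and Elovl7, a fatty acid elongase, at 0.21. The axon-glia junction and cytoskeleton genes were 4 higher and 5 lower of 9 (median -0.00), with Ncam1 at -0.13, Nfasc at -0.00, Anln at 0.21 and Cntn2 at 0.03. The regulators were 6 higher and 4 lower of 10 (median 0.03), with St18 at -0.06, Qk at -0.05, Zeb2 at -0.03 and Zfp536 at -0.20. The committed-stage genes were 2 higher and 2 lower of 4, and the precursor-stage list had 1 gene with 200 UMIs.

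Mature nuclei fell into 6 subclusters, made without the 9 genes, and Opalin and Mal differed most between the one richest in Enpp6 and the rest. That subcluster, led by A530053G22Rik and with Slc5a11, Piezo2 and Enpp6 among its leading genes, held 276 CAPZA2+/- and 190 wild-type nuclei. In it Opalin stood at 433.2 CPM in CAPZA2+/- and 455.1 CPM in wild type, against 770.6 and 670.5 CPM in the other mature nuclei, ratios of 0.56 (0.49 to 0.64) and 0.68 (0.58 to 0.80). Mal was also lower in it, at 680.9 CPM in CAPZA2+/- and 504.9 CPM in wild type, against 933.7 and 634.4 CPM in the others. Mbp was slightly higher in the Enpp6-rich subcluster, with ratios of 1.13 (1.065 to 1.2005) in CAPZA2+/- and 1.08 (1.01 to 1.16) in wild type. Enpp6, a phosphodiesterase that marks newly formed oligodendrocytes, was 8.75-fold and 8.60-fold higher there, and Ptgds was at 0.19 and 0.20 of its level in the others. These contrasts describe clusters and carry no test.

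**Figure D4:**
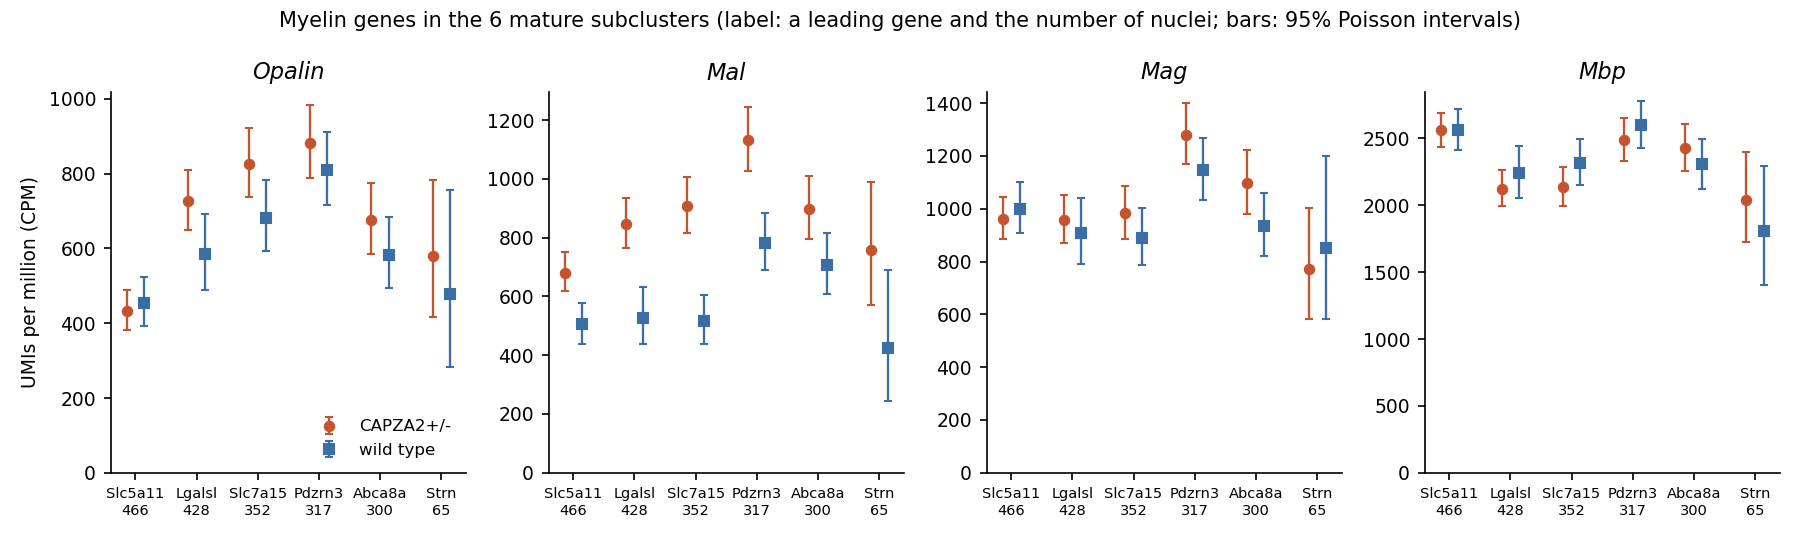
Opalin, Mal, Mag and Mbp in the 6 mature subclusters, as CPM (y axis, from 0) in CAPZA2+/- (circles) and wild type (squares) with 95% Poisson intervals, each subcluster labelled by a leading gene and its number of nuclei. Opalin is lowest in the Slc5a11 subcluster, at 433.2 CPM in CAPZA2+/- and 455.1 CPM in wild type.

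Within mature nuclei thinned to 1000 UMIs the 36 pairs of members were only weakly related, with Pearson coefficients from -0.04 to 0.10 over 1087 CAPZA2+/- nuclei and from -0.09 to 0.10 over 773 wild-type nuclei. Across the 21 sums of 11 cell classes in 2 libraries, by contrast, the mean standardized log2(CPM + 1) profile of the 9 genes ran with Cdc37l1, Rnf220, Traf6, Ermn, Tubb4a, Trim59, Otud7b, Snx15 and A230001M10Rik (r from 0.951 to 0.972), which were among the 10 most alike of 14431 genes compared. Those sums share library, depth and the contrast of mature oligodendrocytes with all else. Against the same profile the members themselves ran from r = 0.987 for Mag to 0.903 for Myrf, which was the least alike.

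Outside the committed and mature stages each gene left a low count in each of the 8 classes compared, precursors included. The 9 genes did so in different proportion. Neurons held 1.22 member UMIs per nucleus in CAPZA2+/- and 1.01 in wild type, and 1.11% and 0.709% of neurons held 10 or more. Those nuclei were left out of the levels per nucleus of Mal, Mbp and Myrf that follow, which cover 8 classes from precursors to inhibitory neurons. The log2 ratios in all neurons and the levels of Cnp and Dnajc7 include them. Mal ran from 0.128 to 0.159 UMIs per nucleus over the classes in CAPZA2+/- and from 0.0644 to 0.115 in wild type, although median depth ranged from 1460.5 to 17337 UMIs. Its highest class was 1.25 times its lowest in CAPZA2+/- and 1.78 times in wild type. Directions were counted per nucleus, with the same nuclei left out and no allowance for depth, which was unequal (CA3 medians of 17337 and 13951.5 UMIs). Mal, Mog and Myrf were higher in CAPZA2+/- in 8 of 8 classes and Mag and Cnp in 7. Mobp and Cldn11 were higher in 6, Opalin in 5 and Mbp in 2. The share of all genes higher in these classes was not counted. For Myrf some directions rest on few UMIs, 5 against 1 in astrocyte-like and 3 against 1 in microglia-like nuclei. In CA1 nuclei, also deeper in CAPZA2+/-, Myrf had 30 against 33 UMIs. Among all neurons together Mal differed by a log2 ratio of 0.72 (0.53 to 0.91) and Mog by 0.65 (0.39 to 0.91), the 2 members past 1.5-fold there, where 0.416% of 13476 genes were that much higher in CAPZA2+/-. For Mog thinning turned the direction, to -0.44 on 21 CAPZA2+/- and 29 wild-type UMIs, and with no doublets removed its log2 ratio was 0.29. Mal stood at 0.43 after thinning, which is under 1.5-fold, and at 0.59 to 0.75 in the other alternatives. Transcripts of 3 genes of other cell types were also higher in the CAPZA2+/- library. Ttr, made by the choroid plexus, stood at 1.63 UMIs per nucleus in CAPZA2+/- and 0.453 in wild type over all nuclei kept. The hemoglobin genes Hbb-bs and Hba-a1 stood at 10.1 and 3.06 CPM in CAPZA2+/- neurons and at 6.30 and 1.45 CPM in wild-type neurons. Their part in the result was not tested.

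Mbp had a wider range over the classes, with the highest 4.46 times the lowest in CAPZA2+/- and 6.34 times in wild type. It stood at 0.469 UMIs per nucleus in CAPZA2+/- and 0.476 in wild-type neurons, against 0.124 and 0.124 in astrocyte-like nuclei and 0.153 and 0.0928 in microglia-like nuclei. With nuclei of any member count included, Mbp made up 44.9% of member UMIs in CAPZA2+/- and 51.7% in wild-type neurons. That was more than the 29.6% and 32.1% in mature nuclei, and in astrocyte-like nuclei Mbp made up 18.3% and 23.6%. Dentate granule nuclei had 0.518 UMIs in CAPZA2+/- and 0.546 in wild type, and the remaining excitatory class had 0.553 and 0.589. CA1 pyramidal-like nuclei had 0.408 in CAPZA2+/- and 0.413 in wild type, CA3 pyramidal-like nuclei 0.399 and 0.385 and inhibitory neurons 0.263 and 0.267. On the CPM scale the neuron to astrocyte ratio was near 1, at 1.0997 (0.81 to 1.53) in CAPZA2+/- and 1.07 (0.76 to 1.55) in wild type, and the neuron to microglia ratio was 0.444 (0.336 to 0.601) and 0.773 (0.509 to 1.24). As background, the Mbp gene also gives longer Golli transcripts from an upstream start, which are known from neurons, and these counts do not tell its transcripts apart.

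Myrf had its highest level per nucleus among the 8 classes in CA3 pyramidal-like nuclei. It stood at 0.0914 UMIs per nucleus in CAPZA2+/- and 0.0736 in wild-type CA3 nuclei, against 0.0112 and 0.00878 in dentate granule nuclei. The CPM scale allows for the greater depth of CA3 nuclei. In nuclei under 10 member UMIs Myrf CPM in CA3 was 3.08 times (1.77 to 5.47) that of dentate granule nuclei in CAPZA2+/-. In wild type it was 3.78 times (1.95 to 7.81). The same ratio was 0.28 to 1.00 in CAPZA2+/- and 0.32 to 0.61 in wild type for the other 8 members. Those nuclei were chosen by counts of the same genes. Over all nuclei the Myrf ratio was 3.85 (2.29 to 6.64) in CAPZA2+/- and 3.55 (1.86 to 7.14) in wild type. The other 8 members then ran from 0.40 to 1.94 (Mog) in CAPZA2+/- and from 0.34 to 0.70 in wild type. With nuclei of 10 or more member UMIs left out, CA1 pyramidal-like nuclei stood at 2.02 times (1.14 to 3.65) the dentate Myrf CPM in CAPZA2+/-. In wild type they stood at 2.70 times (1.38 to 5.59). CA3 was not the highest of the 8 classes in CPM, since over all nuclei precursors stood at 14.97 CPM in CAPZA2+/- and 5.74 in wild type, against 5.79 and 4.51 CPM in CA3. The CA3 ratios in nuclei under 10 member UMIs rest on 35 CA3 and 23 dentate UMIs in CAPZA2+/- and on 34 and 13 UMIs in wild type. Among CA3 nuclei of any member count, 10.2% in CAPZA2+/- and 6.88% in wild type held a Myrf UMI, against 1.07% and 0.810% of dentate granule nuclei.

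**Figure D5:**
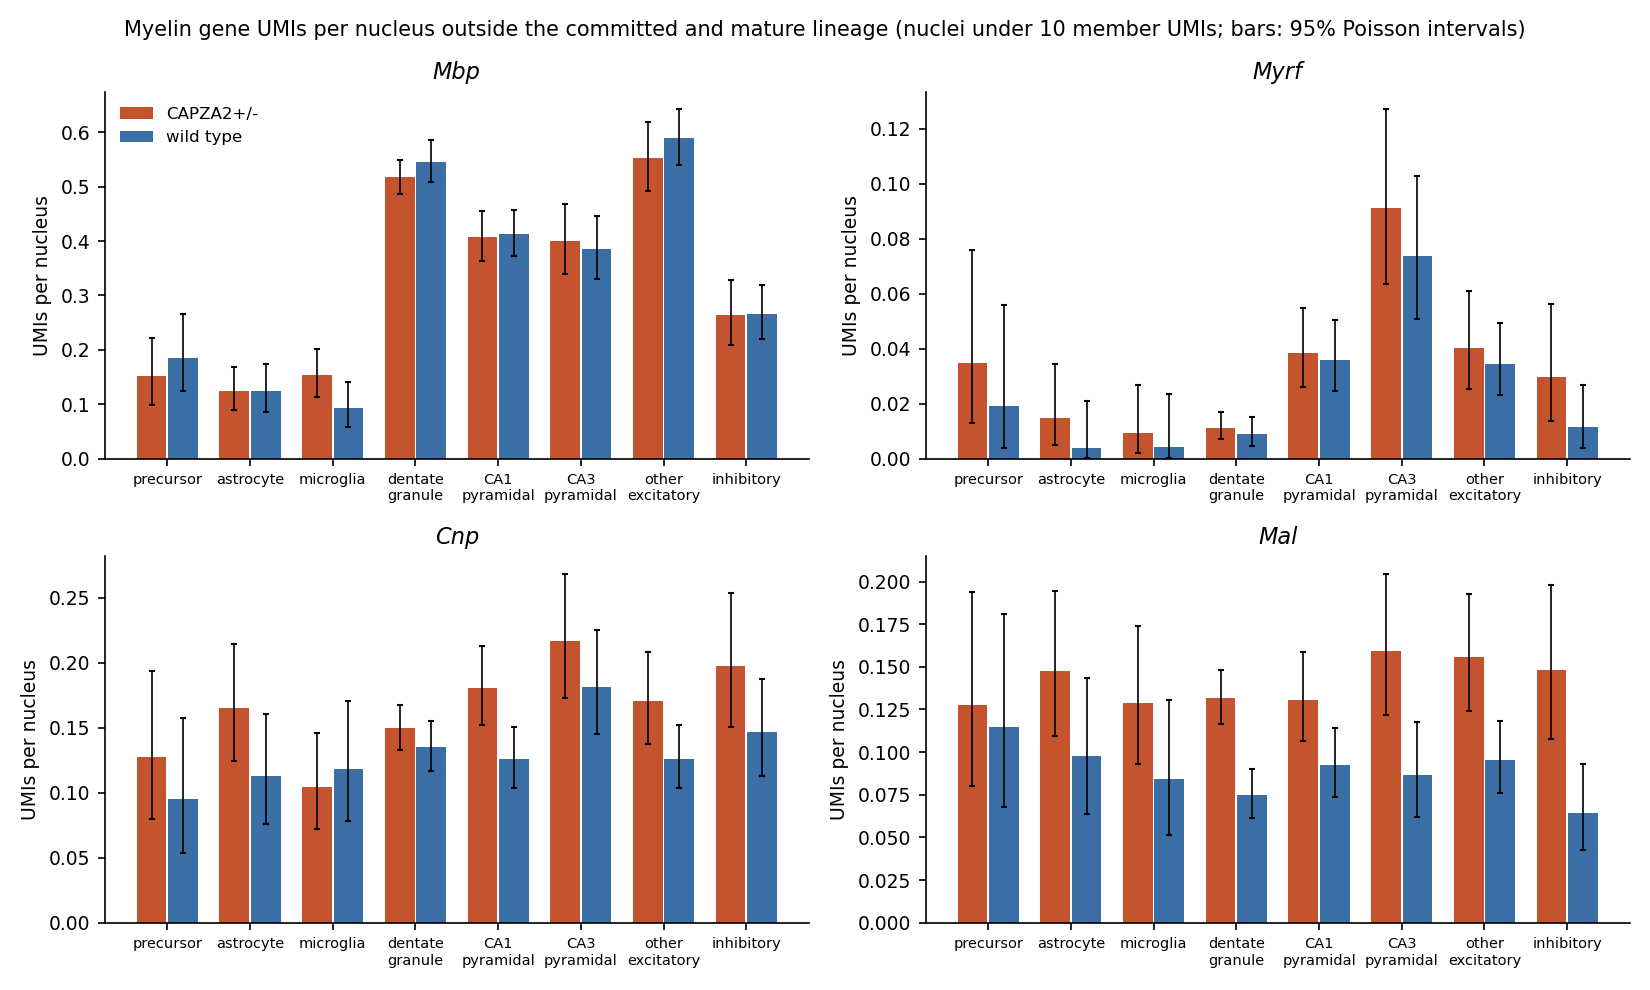
UMIs per nucleus of Mbp, Myrf, Cnp and Mal in precursor-like, astrocyte-like, microglia-like and 5 neuron classes with fewer than 10 member UMIs, CAPZA2+/- (left bars) beside wild type (right bars) with 95% Poisson intervals, axes from 0. Mal runs from 0.128 to 0.159 in CAPZA2+/- and from 0.0644 to 0.115 in wild type, Mbp per nucleus is higher in neurons, and Myrf per nucleus is highest in CA3 nuclei at 0.0914 and 0.0736.

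Cnp gave the largest share of its mature level elsewhere, with neurons at 25.1% of the mature UMIs per nucleus in CAPZA2+/- and 24.4% in wild type, against 3.36% and 2.25% for Mog and 3.07% and 2.30% for Mag. In astrocyte-like nuclei it stood at 0.165 UMIs per nucleus in CAPZA2+/- and 0.124 in wild type, and in neurons at 0.177 and 0.141. Dnajc7, on the other strand of the Cnp locus, had 0.744 UMIs per nucleus in CAPZA2+/- and 0.736 in wild-type neurons, against 0.263 and 0.251 in astrocyte-like nuclei. On the CPM scale Cnp stood at 16.3 in CAPZA2+/- and 13.1 in wild-type neurons, against 53.6 and 41.6 in astrocyte-like nuclei, and Dnajc7 at 68.4 and 68.6, against 85.2 and 84.5. No source used here states whether the counting used strand, so Cnp levels are uncertain, and the part of Dnajc7 in them was not tested.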

How the data were processed

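The deposited matrices hold UMI counts per gene and barcode, which the authors made with Cell Ranger 7.1.0 on mm10, per the submitters' processing notes. Barcodes with at least 500 genes and at most 5% mitochondrial UMIs were kept, and the highest Scrublet scores were removed up to the expected rate (0.8% per 1000 barcodes) in both libraries, since the automatic threshold marked 0.0139% of CAPZA2+/- and 8.05% of wild-type nuclei. Nuclei were clustered with scanpy 1.11.5 (2000 variable genes, 30 components, Leiden resolution 1) without the 9 genes, and clusters were named from marker lists. Clusters taken as mixed (257 CAPZA2+/- and 258 wild-type nuclei, of which 5 and 27 in a lineage subcluster) and unnamed nuclei (224 and 39) were set apart. The mixed clusters were picked by depth and by mean Scrublet score, with 2 times the overall mean as the limit. Their mean scores ran from 0.113 to 0.143 and their median depths from 10626 to 21920 UMIs. Counts were summed per class and library. Intervals were exact (scipy 1.17.1) and cover counting error only. A gene was called past 1.5-fold with at least 200 UMIs over both libraries, and 3 UMIs were the floor for a count of 0. Up to 4 genes of each list were named, those with the most UMIs in mature nuclei, plus those past 1.5-fold, and the interval method was tested on simulated data. The members, lists and settings were chosen with earlier results of these data known. Alternatives were doublet removal, thinning to 1000 UMIs, equal weights, filters, clustering, scaling, floor and fold. Free RNA was not removed. Results on 1 listed gene are not reported here.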

Additional observations from a re-analysis of the deposited data

How the results depend on the processing

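No paired analysis was possible because each genotype has 1 library and both carry replicate number 1. For the main comparisons 49 alternative values moved by less than the counting interval and 27 by more. In mature nuclei the summed log2 ratio of 0.07 was 0.026 in the largest cluster only. The precursor log2 ratio of 0.48 was 0.082 with every nucleus weighted alike, 0.018 at no more than 1% mitochondrial UMIs, 0.027 at Leiden resolution 2, 0.054 with the libraries clustered separately and -0.016 without nuclei of 10 or more member UMIs, an alternative chosen after seeing the data. Without those nuclei Mbp in precursors turned to -0.32. In neurons the summed log2 ratio of 0.25 was 0.14 with no doublets removed, and Mog turned to -0.44 when thinned. The CAPZA2+/- precursor level of 5.20% of mature was 6.67% with no doublets removed, 3.70% with 2 times the expected rate removed, 4.21% thinned, 3.76% with equal weights, 3.77% at no more than 1% mitochondrial UMIs, 3.79% at resolution 2, 3.67% clustered separately and 2.54% without the rich nuclei. The wild-type level of 3.91% was 4.93%, 2.37% and 3.26% in the first 3 of these settings and 2.71% without the rich nuclei. The committed level was 29.4% thinned and 28.2% without the richest nucleus in CAPZA2+/-, and 24.0% thinned, 31.0% with equal weights and 16.6% without the richest nucleus in wild type; leaving out the richest nuclei was also chosen after seeing the data. The share of genes past 1.5-fold in mature nuclei, 0.858%, was 5.67% at a floor of 50 UMIs and 0.434% at 500 UMIs, and 0.0805% passed 2-fold. The largest-cluster setting could not be run for precursors, which form 1 cluster, nor along the lineage. The causes were not tested. The committed class rests on 33 nuclei, with 216 member UMIs in CAPZA2+/- and 171 in wild type.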
